A study of Homo sapiens with 4 samples.

Results

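Genes of the cytoplasmic intermediate filaments were examined in the lung fibroblast line IMR-90, of human fetal origin, with and without disruption of RB1. The cultures were confluent. The members are vimentin (VIM), nestin (NES), synemin (SYNM), desmin (DES), medium neurofilament (NEFM) and the simple epithelial keratins KRT7, KRT8, KRT18 and KRT19. They are 9 of 10 listed symbols, since light neurofilament (NEFL) could not be paired with a row of the table and is not analysed here, and 9 of 57820 gene IDs in all. NEFM and KRT7 were chosen by their lower counts in the RB1 KO libraries, so their values are given as a description and without a test.

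The RB1 KO cells were a pool of puromycin-resistant IMR-90 cells that had received Cas9 and a guide against the translational start site of RB1 on a lentivirus. The wild-type cells were IMR-90 cells without this treatment, and no transduced and selected control is described, so loss of RB1 cannot be told apart from transduction and selection. Each group has 2 RNA-seq libraries, made after removal of ribosomal RNA. The sources do not say that the libraries came from separate cultures, so a p-value here measures only the spread between libraries, which may be technical.

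Intermediate filaments are ropelike polymers that give a cell mechanical strength, and each is built from coiled-coil rod proteins that pair along their length. Type III proteins (vimentin, desmin) can form filaments by themselves, whereas nestin, synemin and the neurofilament proteins are type IV and co-assemble with others. Keratins are obligate partners, with a type II chain (KRT7, KRT8) joined to a type I chain (KRT18, KRT19). Vimentin is the main filament protein of fibroblasts, desmin that of muscle, neurofilaments belong to neurons and simple keratins to epithelia.

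The libraries held 33480111 and 34247292 counts on genes in RB1 KO replicates 1 and 2, against 32827737 and 30873239 in wild-type replicates 1 and 2. Counts on the ERCC spike-in RNAs came to 0.207% and 0.211% of the gene counts in RB1 KO cells, against 0.187% and 0.135% in wild-type cells, so wild-type replicate 2 stood lowest. RB1 itself had 2802 and 2629 counts in RB1 KO cells, against 2545 and 2392 in wild-type cells, a log2 fold change of 0.12 (SE 0.0723, edgeR adjusted p = 0.507). An edit at the start site need not lower the RNA, so this gene-level count does not check the labels. In the paper, disruption of RB1 was checked at the protein level by Western blot. Levels below are CPM, counts relative to the library's total after TMM scaling, log2 fold changes are RB1 KO over wild-type, and a gene passed the test at an edgeR adjusted p under 0.1. Of 16426 genes tested, 2.9% passed, 1.99% as higher and 0.907% as lower in RB1 KO cells. At the same threshold, 584 of 14364 genes passed in DESeq2 and 445 of 16426 in limma-voom, both directions together. Counts at an unadjusted p under 0.05 are given below without a share over all genes to set beside them.

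All 9 members passed the filter on low counts, with at least 16 counts in each of the 4 libraries. Of the 7 members not chosen for their fall, 1 (DES) was lower in RB1 KO cells, none was higher and 6 did not pass, beside 0.907% lower and 1.99% higher over all genes. At an unadjusted p under 0.05, edgeR gave 0 members as higher and 2 as lower (DES and KRT18), and DESeq2 and limma-voom each gave 0 higher and 1 lower at an adjusted p under 0.1. Without wild-type replicate 1 no member passed (255 of 17173 genes did), without wild-type replicate 2 there were 2 (656 of 17126 genes) and without RB1 KO replicate 2 there were 4 (1431 of 17252 genes). With a library left out, its group holds 1 library that is assumed to vary like the other group, which alone gives the spread, so a pass there rests on the other pair. In 5 of the 7 both RB1 KO libraries lay below both wild-type libraries, which 24.3% of all genes did. The median log2 fold change of the 7 was -0.31, against -0.01 over all genes tested. In whole cultures, fewer cells that make a transcript and less of it per cell cannot be told apart.

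VIM outweighed every other member in both groups when levels were set per kb of transcript. It had 1281 and 1464 CPM per kb in RB1 KO cells, against 1365 and 1184 in wild-type cells, between 94.5% and 96.3% of the summed level of the 9 members in each library. NES followed with a mean of 33.9 CPM per kb in RB1 KO cells, against 33.6 in wild-type cells. Next came KRT18 (16.5 in RB1 KO cells, 23.5 in wild-type cells), KRT8 (6.47 in RB1 KO cells, 7.08 in wild-type cells) and SYNM (1.44 in RB1 KO cells, 1.79 in wild-type cells). The ranges of these top 5 did not overlap with each other within a group.

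The 4 members with the lowest levels changed places between the groups, with NEFM and KRT7, chosen for their fall, among them. In RB1 KO cells KRT19 (0.389 to 0.416 CPM per kb) lay within the range of DES (0.231 to 0.549) and overlapped with KRT7 (0.314 to 0.431). NEFM was at the bottom there with 0.149 and 0.239 CPM per kb, which overlapped only with DES. In wild-type cells DES (1.15 to 1.35 CPM per kb), KRT7 (1.06 to 1.16) and NEFM (0.955 to 1.24) overlapped, and KRT19 lay below them at 0.452 to 0.756. The 4 keratins together, the chosen KRT7 included, made up 1.58% and 1.72% of the members' summed level in RB1 KO cells, against 2.55% and 2.24% in wild-type cells.

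**Figure D1:**
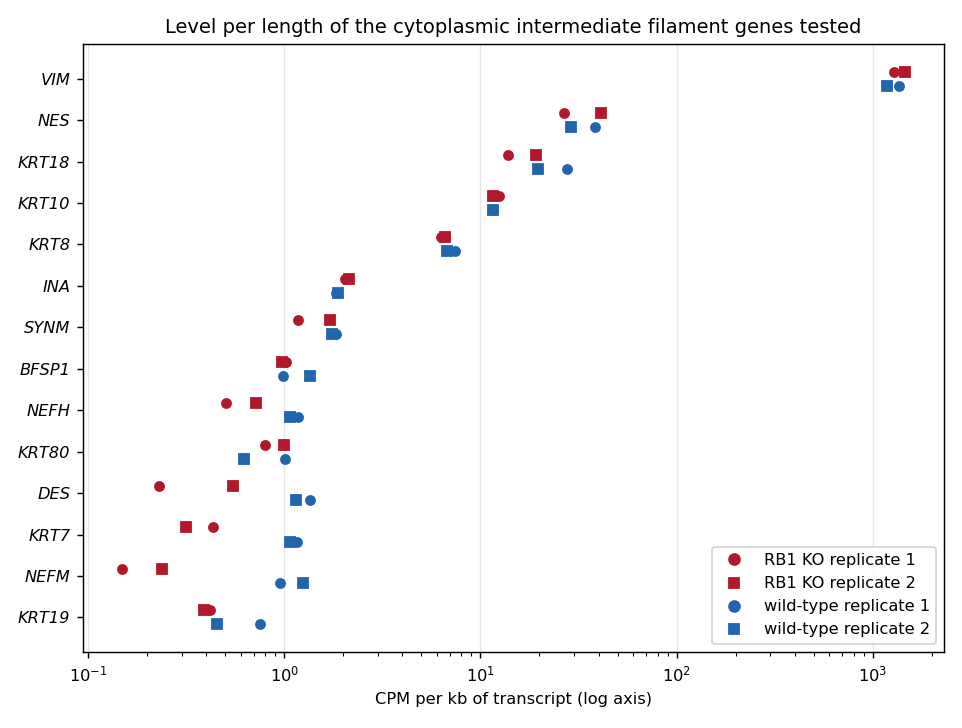
Level of each tested cytoplasmic intermediate filament gene in CPM per kb of transcript on a log axis, with 1 point for each library (red, RB1 KO; blue, wild-type; circle, replicate 1; square, replicate 2). VIM lies at 1184 to 1464 CPM per kb in the 4 libraries. DES, KRT7 and NEFM lie lower in RB1 KO than in wild-type libraries, KRT7 and NEFM having been chosen for it.

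VIM (GRCh37 chr10:17270240-17279592, plus strand, 10 exons) encodes the filament that surrounds the nucleus and spreads through the cytoplasm of mesenchymal cells. It had 90654 and 104998 counts in RB1 KO cells, against 97880 and 81119 in wild-type cells. The groups overlapped, with means of 2957 ± 279 CPM in RB1 KO cells and 2745 ± 277 CPM in wild-type cells (SD, n = 2 each). The log2 fold change of 0.11 (SE 0.119, edgeR adjusted p = 0.730) did not pass the test. The opposite-strand transcript VIM-AS1 held 3.43% to 4.38% as many counts as VIM in the 4 libraries, and a second opposite-strand gene inside VIM, ENSG00000234961, held at most 1.75%.

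NES (chr1:156638555-156647199, minus strand, 4 exons), a very long type IV protein of progenitor cells that joins vimentin filaments, differed more within groups than between them. It had 4876 and 7607 counts in RB1 KO cells, against 7083 and 5149 in wild-type cells. Means were 188 ± 56.6 CPM in RB1 KO cells and 187 ± 36.0 CPM in wild-type cells (SD, n = 2 each), a log2 fold change of 0.0089 (SE 0.196, edgeR adjusted p = 0.988). RB1 KO replicate 1 was the lowest library and RB1 KO replicate 2 the highest. Without RB1 KO replicate 2 the log2 fold change was -0.33, past the threshold with the spread of the wild-type pair alone, and without RB1 KO replicate 1 it was 0.29.

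SYNM (chr15:99638420-99675798, plus strand, 5 exons) encodes a type IV protein that binds vimentin and desmin and ties them to membrane sites. It had 284 and 418 counts in RB1 KO cells, against 449 and 409 in wild-type cells. Scaled means were 10.6 ± 2.77 CPM in RB1 KO cells and 13.2 ± 0.449 CPM in wild-type cells (SD, n = 2 each). The groups did not overlap on that scale, but 12.6 CPM in RB1 KO replicate 2 was close to 12.9 CPM in wild-type replicate 2. The log2 fold change of -0.31 (SE 0.172, edgeR adjusted p = 0.442) did not pass, and without RB1 KO replicate 2 it was -0.60, past the threshold with the spread of the wild-type pair alone. An antisense transcript at SYNM, SYNM-AS2, had 4 and 15 counts in RB1 KO cells, against 8 and 16 in wild-type cells.

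DES (chr2:220283099-220291457, plus strand, 9 exons), the filament of muscle cells, was the tested member that fell. It had 17 and 41 counts in RB1 KO cells, against 101 and 82 in wild-type cells, which is 0.518 and 1.23 CPM in RB1 KO cells and 3.03 and 2.58 CPM in wild-type cells. Means were 0.875 ± 0.505 CPM in RB1 KO cells and 2.81 ± 0.323 CPM in wild-type cells (SD, n = 2 each). The log2 fold change was -1.68 (SE 0.362, edgeR adjusted p = 0.0761). Both RB1 KO libraries were below both wild-type libraries, and the RB1 KO libraries also differed from each other beyond counting error. Their exact Poisson 95% intervals ran between 9.90 and 27.2 counts in RB1 KO replicate 1 and between 29.4 and 55.6 counts in RB1 KO replicate 2, and cover counting error only. Without wild-type replicate 1 the log2 fold change was -1.54 and did not pass (adjusted p = 0.166), and without RB1 KO replicate 2 it was -2.43. DES lay below VIM by a wide margin in each library, at 0.231 and 0.549 CPM per kb in RB1 KO cells and 1.35 and 1.15 CPM per kb in wild-type cells.

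The summed levels of muscle markers overlapped between the groups. The 12 striated muscle markers summed to 3.01 and 2.46 CPM in RB1 KO cells and to 2.94 and 3.96 CPM in wild-type cells. Of the 4 that could be tested none passed in edgeR, DESeq2 or limma-voom, with 0 at an unadjusted p under 0.05, and MYOG, a transcription factor of muscle differentiation, had 0 counts in each library. Of 10 smooth muscle and pericyte markers, 3 were higher in RB1 KO cells (RGS5, SYNPO2 and NOTCH3) and 1 was lower (MYH11). Over all genes, 1.99% were higher and 0.907% lower. For these 10 markers DESeq2 gave 2 as higher and 1 as lower, and limma-voom gave 3 as higher and 1 as lower. Both directions together, 584 of 14364 genes passed in DESeq2 and 445 of 16426 in limma-voom. The summed level of the 10 ran from 1730 to 2120 CPM in RB1 KO cells and from 1402 to 1864 CPM in wild-type cells. MYH11, the heavy chain of smooth muscle myosin, had 381 and 452 counts in RB1 KO cells, against 868 and 614 in wild-type cells (log2 fold change -0.85, SE 0.157, edgeR adjusted p = 0.0487). Those higher had log2 fold changes of 1.38 (RGS5), 0.59 (NOTCH3) and 0.48 (SYNPO2), with edgeR adjusted p = 0.071, 0.015 and 0.061. Of the 10 log2 fold changes 7 were positive and 3 negative, with a median of 0.22. The part of such cells in the level of DES was not tested.

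NEFM, on chromosome 8 with 3 exons, encodes a subunit of the filaments that fill axons. It had 16 and 26 counts in RB1 KO cells, against 104 and 129 in wild-type cells. Means were 0.634 ± 0.208 CPM in RB1 KO cells and 3.59 ± 0.657 CPM in wild-type cells (SD, n = 2 each), a log2 fold change of -2.49 (SE 0.301), the value for which it was listed. This was the lowest log2 fold change of the 9 members, a rank that the choice favours. With each library left out in turn it ran from -2.87 to -2.19, which reuses the same libraries and does not check the fall. An antisense gene at the same place, ENSG00000272163, had 1 and 2 counts in RB1 KO cells, against 16 and 12 in wild-type cells. Like NEFM, this antisense gene is described without a test (log2 fold change -3.14, SE 0.635), since its counts may include reads of the chosen gene. Which strand column was deposited is not given in the sources used here, so reads of NEFM and of its antisense partner may not be separated.

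The other neurofilament subunits that could be tested did not pass. Heavy neurofilament (NEFH), which co-assembles with NEFM, had 63 and 91 counts in RB1 KO cells, against 148 and 129 in wild-type cells. Its means of 2.33 ± 0.577 CPM in RB1 KO cells and 4.25 ± 0.277 CPM in wild-type cells (SD, n = 2 each) gave a log2 fold change of -0.87 (SE 0.220, edgeR adjusted p = 0.12), which did not pass, although the groups did not overlap. Alpha-internexin (INA), another neuronal subunit, had 218 and 232 counts in RB1 KO cells, against 199 and 194 in wild-type cells (log2 fold change 0.17, adjusted p = 0.611). The lens filament gene BFSP1 had a log2 fold change of -0.23 (adjusted p = 0.704). PRPH had no count in any library, and GFAP and BFSP2 reached at most 6 counts. The median log2 fold change of all genes tested moved by -0.066 when scaled by library totals and by -0.48 when scaled by ERCC counts. With all 4 libraries NEFH passed when scaled by library totals (-0.93, adjusted p = 0.0932) or ERCC counts (-1.33, adjusted p = 0.0935), and its adjusted p ran up to 0.209 with the replicate number as a block. Without RB1 KO replicate 2 it was past the threshold at -1.14, with the spread of the wild-type pair alone.

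The summed level of neuronal markers overlapped between the groups. The 11 markers summed to 383 and 353 CPM in RB1 KO cells and to 353 and 362 CPM in wild-type cells, most of it UCHL1, a ubiquitin hydrolase. STMN2 and ELAVL4, which mark neurons, had no count in any library. Of the 5 that could be tested, 1 was higher in RB1 KO cells, beside 1.99% over all genes, and the other 4 did not pass. This was MAP2, a microtubule protein of dendrites (log2 fold change 0.94, SE 0.184, edgeR adjusted p = 0.0603). At an unadjusted p under 0.05 edgeR gave 1 as higher and 1 as lower, TUBB3, a neuronal tubulin, with 53 and 51 counts in RB1 KO cells, against 84 and 67 in wild-type cells (log2 fold change -0.56, adjusted p = 0.311). GAP43, a protein of growing axons, had 5 and 9 counts in RB1 KO cells, against 14 and 15 in wild-type cells (log2 fold change -1.06, adjusted p = 0.344). SNAP25 and UCHL1 had log2 fold changes of 0.22 and 0.03 (edgeR adjusted p = 0.672 and 0.89). The median log2 fold change of the 5 tested was 0.03.

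KRT8 and KRT18 are the keratin pair of simple epithelia, and their genes lie beside each other on chromosome 12 with ends that overlap on opposite strands. KRT8 (chr12:53290971-53343738, minus strand, 8 exons) had 371 and 392 counts in RB1 KO cells, against 438 and 385 in wild-type cells. Its means were 11.5 ± 0.341 CPM in RB1 KO cells and 12.6 ± 0.749 CPM in wild-type cells (SD, n = 2 each), a log2 fold change of -0.13 (SE 0.113, edgeR adjusted p = 0.639). The groups did not overlap after scaling, by 11.8 CPM in RB1 KO replicate 2 against 12.1 CPM in wild-type replicate 2. Processed copies of the KRT8 message elsewhere in the genome hold near-identical sequence. Only reads with a single mapping place were kept, so reads shared with these copies were dropped and the KRT8 count may be too low.

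KRT18 (chr12:53342655-53346690, plus strand, 7 exons) had 641 and 901 counts in RB1 KO cells, against 1292 and 880 in wild-type cells. Means were 23.3 ± 5.34 CPM in RB1 KO cells and 33.2 ± 7.89 CPM in wild-type cells (SD, n = 2 each), a log2 fold change of -0.51 (SE 0.189, edgeR adjusted p = 0.252). The groups barely parted, with 27.1 CPM in RB1 KO replicate 2 and 27.7 CPM in wild-type replicate 2, and each group held 1 library about 1.4 times the other. KRT18 was past the threshold without RB1 KO replicate 2 (-0.77) or, likewise, without wild-type replicate 2 (-0.74), in each case with the spread of the other group alone, and was at -0.24 without wild-type replicate 1. Per kb, KRT18 stood above KRT8 in each library, by 2.18 and 2.90 times in RB1 KO cells, against 3.72 and 2.89 times in wild-type cells. Reads shared with pseudogene copies of either gene were dropped, so these ratios are uncertain.

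KRT7 (chr12:52626304-52645970, plus strand, 9 exons) is a type II keratin of ducts and glands. It had 23 and 17 counts in RB1 KO cells, against 63 and 55 in wild-type cells. Means were 0.605 ± 0.134 CPM in RB1 KO cells and 1.81 ± 0.116 CPM in wild-type cells (SD, n = 2 each), a log2 fold change of -1.58 (SE 0.298), the value for which it was listed. With each library left out in turn it ran from -1.82 to -1.36, which reuses the same libraries and does not check the fall.

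KRT19 (chr17:39679869-39684560, minus strand, 6 exons) is a short type I keratin of simple epithelia. It had 19 and 18 counts in RB1 KO cells, against 35 and 20 in wild-type cells. Means were 0.560 ± 0.0266 CPM in RB1 KO cells and 0.840 ± 0.299 CPM in wild-type cells (SD, n = 2 each), a log2 fold change of -0.59 (SE 0.381, edgeR adjusted p = 0.520). Most of that difference lay in wild-type replicate 1, without which it was -0.16.

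**Figure D2:**
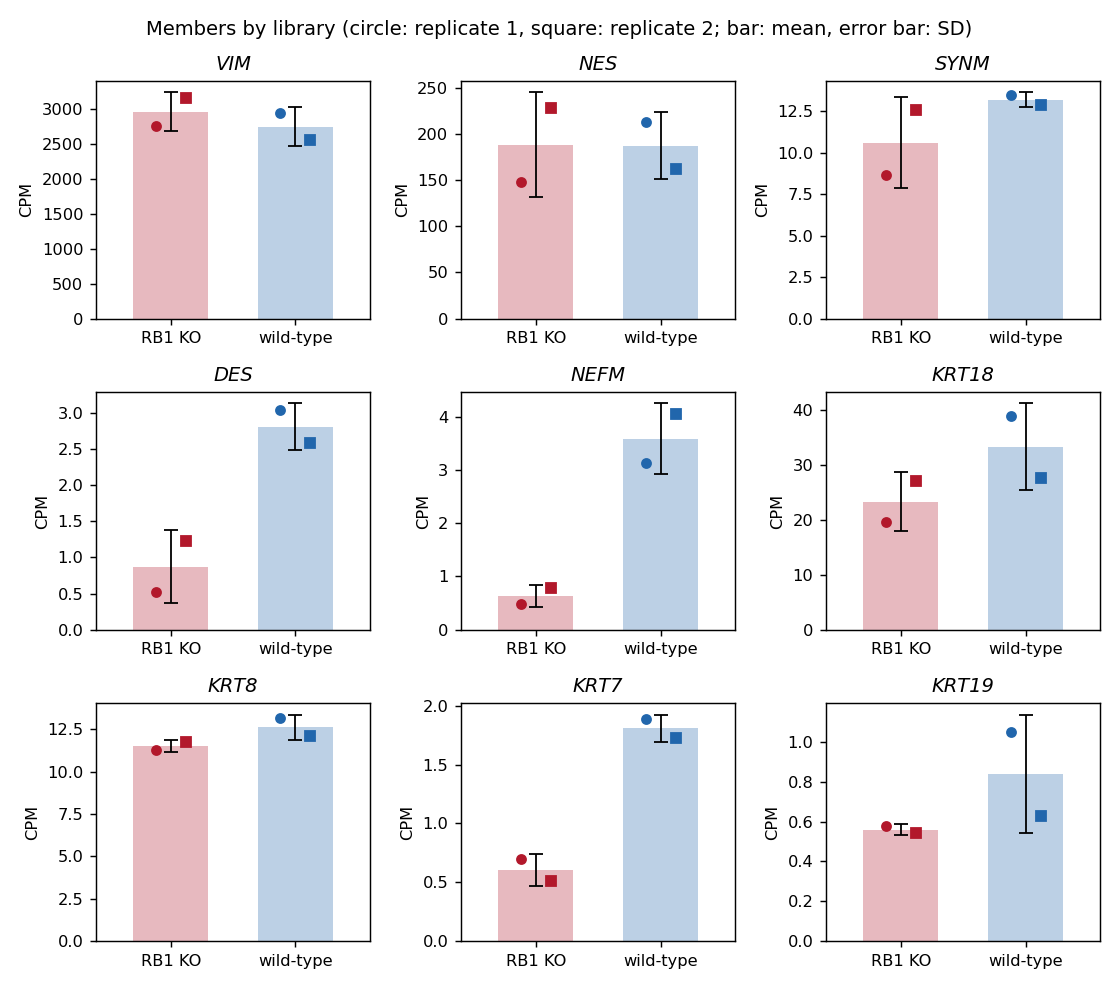
CPM of each member in every library (circle, replicate 1; square, replicate 2; bar, mean; error bar, SD; n = 2 in each group), RB1 KO in red and wild-type in blue, with axes from 0. DES, NEFM and KRT7 lie lower in both RB1 KO libraries, NEFM and KRT7 having been chosen for it, while VIM and NES overlap between the groups.

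Defining genes of epithelial cells were at or near 0 in these libraries. Of 12 epithelial markers 4 had no count in any library, CDH1, the epithelial cadherin, among them, and EPCAM had 7 and 12 counts in RB1 KO cells, against 13 and 17 in wild-type cells. Together they summed to 0.944 and 1.14 CPM in RB1 KO cells and to 1.05 and 1.73 CPM in wild-type cells, below KRT18 alone. Mesothelial cells also make simple keratins, and their 8 markers summed to 10.1 and 11.2 CPM in RB1 KO cells, against 15.7 and 15.5 CPM in wild-type cells. Nearly all of that sum was the transcription factor BNC1, with 9.80 and 10.9 CPM in RB1 KO cells, against 15.1 and 14.8 CPM in wild-type cells. BNC1 was the only 1 of the 8 that could be tested and was lower in RB1 KO cells (log2 fold change -0.53, SE 0.112, edgeR adjusted p = 0.0742). CALB2 had 1 and 0 counts in RB1 KO cells, against 8 and 7 in wild-type cells, MSLN had at most 1 count in a library and WT1 had none. The part of mesothelial cells in the keratin levels was not tested. The 12 fibroblast markers, in contrast, summed to 53381 and 49384 CPM in RB1 KO cells and to 40267 and 42241 CPM in wild-type cells, most of it collagens and fibronectin. Of the 12, LUM was higher in RB1 KO cells (log2 fold change 0.68, edgeR adjusted p = 0.0245), POSTN was lower (-0.93, adjusted p = 0.0186) and 10 did not pass. DESeq2 gave 5 of the 12 as higher and 1 as lower, and limma-voom gave 2 as higher and 1 as lower. In edgeR, 1.99% of all genes were higher and 0.907% lower. Both directions together, 584 of 14364 genes passed in DESeq2 and 445 of 16426 in limma-voom.

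Of 51 other keratin genes, 39 had no count in any library and 49 were too low to test. KRT10, a type I keratin best known from the upper epidermis, had 879 and 824 counts in RB1 KO cells, against 825 and 791 in wild-type cells, a log2 fold change of 0.05 (edgeR adjusted p = 0.827). KRT80, a type II keratin, had 102 and 128 counts in RB1 KO cells, against 130 and 77 in wild-type cells (log2 fold change 0.13, adjusted p = 0.856). Neither passed in DESeq2 or limma-voom or had an unadjusted p under 0.05. Among the untested, KRT15, a keratin of basal cells, had the highest count, 6 and 15 in RB1 KO cells, against 6 and 0 in wild-type cells, and KRT34, KRT81 and KRT4 had at most 4 counts in a library.

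Libraries of a group varied in a way shared by many genes, since over the 16426 genes tested the deviations of same-numbered libraries from their group means correlated at -0.34, a description across genes, which are not replicates. Several members took part in it. NES was 1.54 times as high in RB1 KO replicate 2 as in replicate 1 and 1.32 times as high in wild-type replicate 1 as in replicate 2. The ratios were 1.39 and 1.40 in KRT18 and 1.14 and 1.15 in VIM. SYNM (1.45 and 1.05) and DES (2.38 and 1.18) leaned the same way, mostly in RB1 KO cells. HSPB1, a small heat shock protein that binds filaments, had ratios of 1.43 and 1.26. NEFM was also higher in RB1 KO replicate 2 than in replicate 1 but lower in wild-type replicate 1 than in replicate 2, and KRT7 was lower in RB1 KO replicate 2 than in replicate 1.

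**Figure D3:**
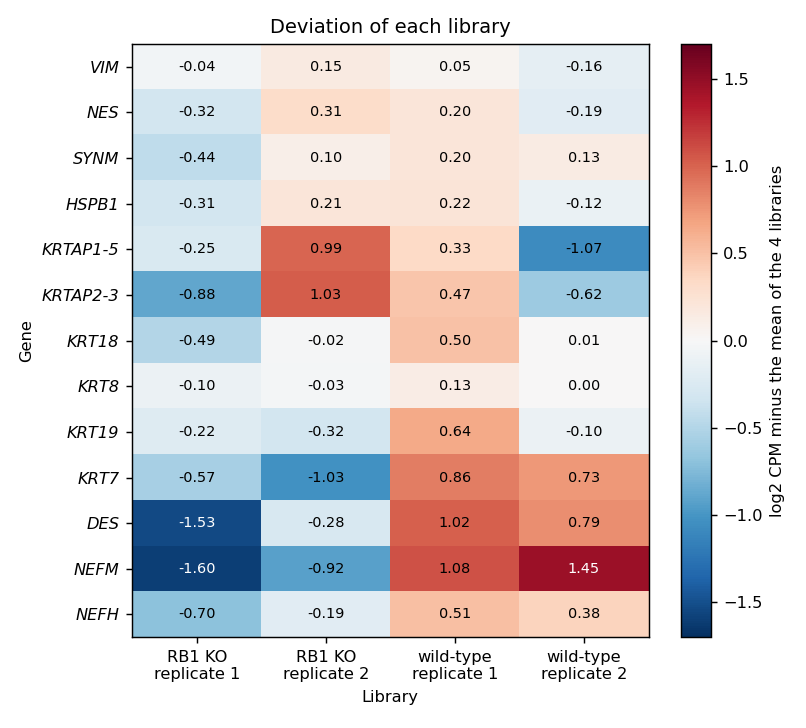
log2 CPM of each gene in each library minus its mean over the 4 libraries, as colour and number (RB1 KO replicates at the left, wild-type replicates at the right). NES is high in RB1 KO replicate 2 (0.31) and wild-type replicate 1 (0.20) and low in the other libraries. DES, KRT7, NEFM and NEFH are below 0 in both RB1 KO libraries, KRT7 and NEFM having been chosen for their fall.

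Filaments are tied to the membrane, the nucleus and the other cytoskeletons by linker proteins, among them the giant plakins. Of 18 linker genes 16 were tested, and 1 was higher in RB1 KO cells, 1 was lower and 14 did not pass. The median of their log2 fold changes was -0.01, equal to that of all genes, of which 1.99% were higher and 0.907% lower. Desmoplakin (DSP), which anchors filaments at desmosomes, had 1485 and 1536 counts in RB1 KO cells, against 905 and 1040 in wild-type cells. It rose to 45.7 ± 0.663 CPM in RB1 KO cells, against 29.9 ± 3.89 CPM in wild-type cells (SD, n = 2 each; log2 fold change 0.61, SE 0.102, edgeR adjusted p = 0.0365). Scaled to the ERCC counts, the log2 fold change of DSP was 0.11 and did not pass, where the median of all genes moved by -0.48.

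Periplakin (PPL), a smaller plakin of epithelial cell borders that binds vimentin and keratin 8, moved the other way. It had 119 and 81 counts in RB1 KO cells, against 229 and 272 in wild-type cells. It fell to 3.03 ± 0.841 CPM in RB1 KO cells, against 7.71 ± 1.18 CPM in wild-type cells (SD, n = 2 each; log2 fold change -1.35, SE 0.219, edgeR adjusted p = 0.0339). The most abundant linkers did not pass. Plectin (PLEC), the main link from vimentin to actin and adhesions, averaged 1282 CPM in RB1 KO cells and 1284 CPM in wild-type cells (adjusted p = 0.994), and DST and MACF1 had log2 fold changes of 0.05 and 0.11.

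Of 13 desmosome genes 6 were tested, and 1 was higher in RB1 KO cells, none was lower and 5 did not pass. The shares over all genes were 1.99% higher and 0.907% lower. In the lower direction, 1 of the 6 had an unadjusted p under 0.05 in edgeR and none passed in DESeq2 or limma-voom. PERP, a membrane protein of desmosomes and a target of p53, had 6742 and 6004 counts in RB1 KO cells, against 4320 and 4584 in wild-type cells. It rose to 193 ± 17.6 CPM in RB1 KO cells, against 137 ± 10.1 CPM in wild-type cells (SD, n = 2 each; log2 fold change 0.49, SE 0.0888, edgeR adjusted p = 0.0445). Without wild-type replicate 1 PERP was at 0.43 and did not pass (adjusted p = 0.130), nor did it with ERCC scaling, at 0.0023, or with the replicate number as a block, at 0.49 (adjusted p = 0.110). Plakoglobin (JUP), the armadillo protein that links desmosomal cadherins to desmoplakin, averaged 152 ± 5.10 CPM in RB1 KO cells and 119 ± 26.7 CPM in wild-type cells (SD, n = 2 each; log2 fold change 0.35, adjusted p = 0.271). PKP4, a relative of the plakophilins, had a log2 fold change of -0.13.

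**Figure D4:**
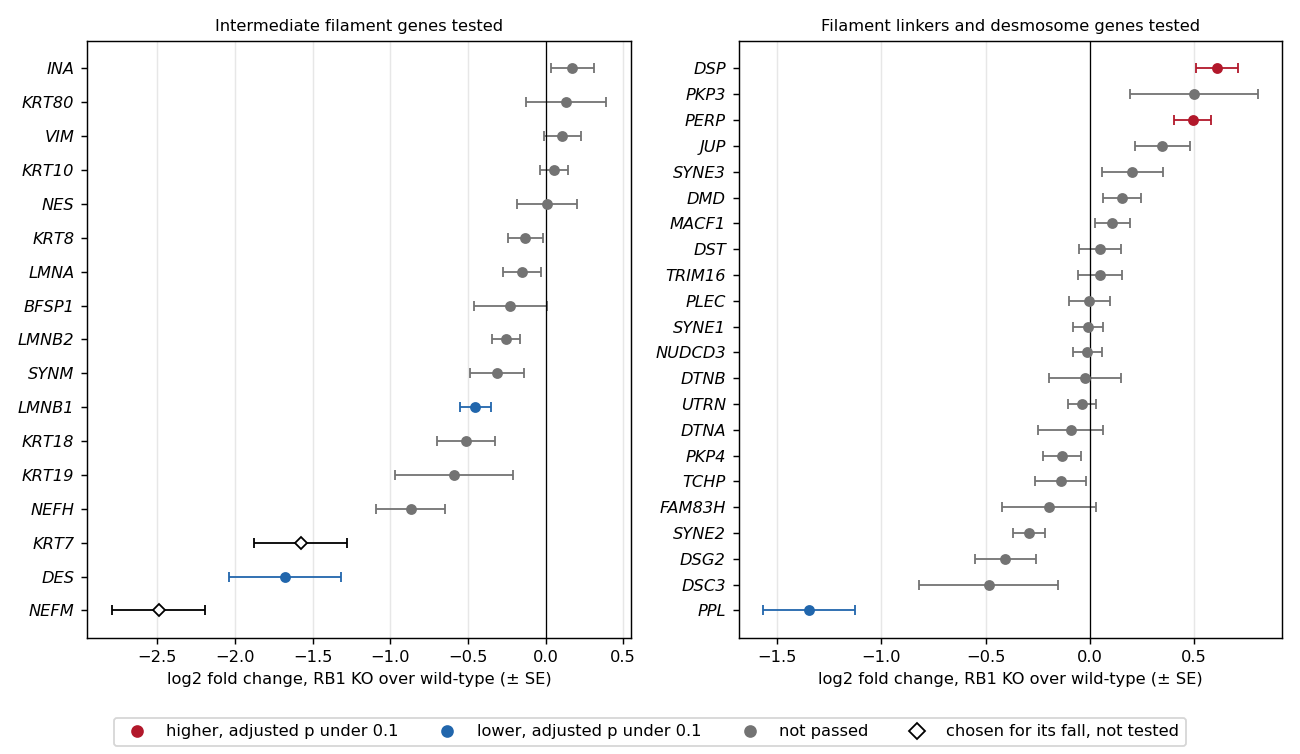
log2 fold change of RB1 KO over wild-type with its SE (horizontal bars) for the tested intermediate filament genes at the left and the tested linker and desmosome genes at the right, 2 libraries in each group. Filled red and blue points passed the edgeR test as higher and lower, grey points did not, and open diamonds mark KRT7 (-1.58) and NEFM (-2.49), which were chosen for their fall and not tested.

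Kinases, chaperones and turnover factors of filaments gave no call. Of 16 genes 15 were tested and 0 passed in edgeR, DESeq2 or limma-voom. At an unadjusted p under 0.05 edgeR gave 1 as higher and 2 as lower, and the median log2 fold change was -0.01. HSPB1 had 5465 and 7940 counts in RB1 KO cells, against 7977 and 6054 in wild-type cells (log2 fold change -0.09, edgeR adjusted p = 0.856). DNAJB6, a co-chaperone of keratins, and ROCK2, a kinase that phosphorylates vimentin, had log2 fold changes of 0.12 and -0.01. CRYAB, the chaperone of desmin in muscle, was singled out after its values were seen. It had 69 and 81 counts in RB1 KO cells, against 164 and 104 in wild-type cells, and its log2 fold change of -0.85 (SE 0.246, adjusted p = 0.155) did not pass.

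The nuclear lamins are the type V filaments. LMNB1, the B-type lamin that meets the inner nuclear membrane, fell to 60.9 ± 6.96 CPM in RB1 KO cells, against 83.2 ± 6.15 CPM in wild-type cells (SD, n = 2 each; log2 fold change -0.45, SE 0.0970, edgeR adjusted p = 0.0758), but without wild-type replicate 1 it was at -0.36 and did not pass (adjusted p = 0.273), nor did it with the replicate number as a block, ERCC scaling or no filter (adjusted p = 0.165, 0.241 and 0.127), and LMNB2 (-0.26, adjusted p = 0.233) and LMNA (-0.15, adjusted p = 0.618) did not pass.

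Over all 199 paired genes of these lists, 47 were tested and 2 were higher in RB1 KO cells (DSP and PERP), 2 were lower (PPL and LMNB1) and 43 did not pass. The shares over all genes tested were 1.99% higher and 0.907% lower, with a median log2 fold change of -0.01. The median of the 47 list genes was also -0.01. At an unadjusted p under 0.05 edgeR gave 4 as higher and 8 as lower.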

How the data were processed

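Ribosomal RNA was depleted and strand-specific libraries were prepared. The authors aligned the reads to GRCh37 with STAR (2.7.2b in the submitters' processing notes), kept reads with a single mapping place and deposited raw counts per GENCODE v19 gene. The strand column used is not given in the sources used here. Symbols, coordinates and transcript lengths came from GENCODE v44 mapped to GRCh37, which paired 55538 of 57820 gene IDs.

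Counts were tested with edgeR 4.0.16 (quasi-likelihood, TMM, filterByExpr at its minimum count, 10, and minimum total, 15, Benjamini-Hochberg over 16426 genes, adjusted p under 0.1) in R 4.3.3 on all 4 libraries, 2 in each group. DESeq2 1.42.0, limma-voom (limma 3.58.1), other scalings, filters, thresholds, a replicate block and leaving out each library were tried as alternatives. The code was tested on simulated data.

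The members and lists were chosen with earlier results of these data known. Named are all members, RB1, and in each list other than the cell type markers the genes past the threshold and the 3 highest per kb, with overlapping genes and pseudogenes of members at 10 counts or more in a library. Cell type markers are given as list totals with examples, which, like CRYAB and the low-count filament genes, were named after their values were seen. Replicates of a group differed beyond counting noise (chi-square per degree of freedom 17.5 and 18.9), and each was entered as its own sample. That spread may be technical and does not show that the libraries came from separate cultures. Coding sequences of the members are not reported here.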

Additional observations from a re-analysis of the deposited data

How the results depend on the processing

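Of the values recomputed under alternatives, 658 stayed close to the reported ones or on their side of the threshold, 49 moved, 39 changed sign, 21 passed only then and 11 no longer passed. Among the 658 are counts of 0 calls in lists with few tested genes, which could hardly change, so that total does not measure stability. The cause of each change below was not tested, except that a stricter threshold or fewer libraries lowers or moves calls by construction. Of the 7 tested members, the number lower was 1, and it became 0 at an adjusted p under 0.05 and ran from 0 (without wild-type replicate 1) to 4 (without RB1 KO replicate 2). Of the list genes, 2 were higher and 2 lower, beside 1.99% and 0.907% over all genes. The number higher was 0 with ERCC scaling and ran from 1 (without wild-type replicate 1) to 4 (without RB1 KO replicate 1), and the number lower was 4 with library totals, 1 without a filter and 1 at an adjusted p under 0.05, and ran from 1 (without wild-type replicate 1) to 8 (without RB1 KO replicate 2).

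The replicate numbers were not taken as pairs, since deviations of same-numbered libraries from their group means correlated at -0.34 over 16426 genes. With the replicate number as a block, list genes called were 1 higher and 1 lower, NES was at -0.011, the 1 member stayed lower, and calls over all genes were 226 in place of 476. Crossing the numbers, added after the data were seen, gave 2974 calls over all genes, 2 members lower, and 5 list genes higher and 10 lower, with NES at -0.00895.

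ERCC scaling moved the median of all genes tested by -0.48, to -0.49, and with it the log2 fold changes of RB1 (-0.36), VIM (-0.36), NES (-0.44), DNAJB6 (-0.36), DST (-0.45), INA (-0.31), JUP (-0.17), KRT10 (-0.43), KRT80 (-0.29), KRTAP2-3 (-0.067) and MACF1 (-0.38) below 0, each above that median. Values near 0 also changed sign with library totals (NES -0.057, DST -0.018, KRT10 -0.013), upper-quartile factors (NES -0.014), limma-voom (NES -0.011), RLE factors (PLEC 0.0033), no filter (PLEC 0.0043) and DESeq2 (PLEC 0.0087, ROCK2 0.0043). With each library left out in turn, log2 fold changes that changed sign ran from -0.33 to 0.29 in NES, -0.42 to 0.011 in BFSP1, -0.040 to 0.16 in DST, -0.37 to 0.15 in HSPB1, -0.0012 to 0.11 in KRT10, -0.17 to 0.53 in KRT80, -0.052 to 1.57 in KRTAP1-5, -0.90 to 1.00 in KRTAP2-3, -0.32 to 0.0017 in LMNA, -0.10 to 0.10 in PLEC and -0.049 to 0.040 in ROCK2. The adjusted p of DES ran from 0.0018 with ERCC scaling to 0.0883 with the block when all 4 libraries were used. Calls over all genes numbered 255 when wild-type replicate 1 was left out, 845 for RB1 KO replicate 1 and 1431 for RB1 KO replicate 2, and 179 with ERCC scaling, 320 without a filter and 584 with DESeq2. With at most 35 counts in a library, the exact Poisson intervals of KRT19 overlapped across the 4 libraries.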

Other observations

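Pseudogenes of the keratin pair carried counts of their own. The 51 rows named as pseudogenes of KRT8 summed to 226 and 226 counts in RB1 KO cells and to 254 and 236 in wild-type cells, which is 57.7% to 61.3% of the KRT8 count in each library. The rows with at least 10 counts in a library were KRT8P12, KRT8P46, KRT8P33, KRT8P39 and KRT8P36. KRT8P12 had 90 and 79 counts in RB1 KO cells, against 93 and 77 in wild-type cells, and KRT8P46 had 85 and 85, against 99 and 85 in wild-type cells.

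The 67 rows named as pseudogenes of KRT18 summed to 45 and 48 counts in RB1 KO cells and to 30 and 52 in wild-type cells, 2.32% to 7.02% of KRT18. Those with at least 10 counts in a library were KRT18P31, KRT18P59, KRT18P4 and KRT18P5, each with at most 15 counts.

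Keratin-associated proteins form the matrix around hair keratins, and 84 of 92 paired genes had no count in any library. KRTAP1-5 had 176 and 421 counts in RB1 KO cells, against 268 and 97 in wild-type cells (log2 fold change 0.69, SE 0.472, edgeR adjusted p = 0.539). KRTAP2-3 had 12 and 46 counts in RB1 KO cells, against 31 and 14 in wild-type cells (log2 fold change 0.34, adjusted p = 0.840). Both were highest in RB1 KO replicate 2 and then in wild-type replicate 1, the order also seen in VIM and NES. The 2 tested genes did not pass in DESeq2 or limma-voom either, with none at an unadjusted p under 0.05, and the highest untested count was 7, in KRTAP4-12.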
